A study of Homo sapiens with 22 samples.

Results

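Cluster 6 is one of 13 expression clusters that the study's authors defined by Louvain clustering of WM989 melanoma cells, and its members were taken here as every cell whose deposited cluster number is 6. It held 2531 of 40021 cells, and 0 of them belonged to the clusters the authors called primed for drug resistance. WM989 is a BRAF-mutant human melanoma line, used here as a clone bottlenecked repeatedly to a single cell and carrying a lentiviral library of transcribed lineage barcodes. Barcoded cells were expanded from a sorted well, split over 4 plates and left untreated (Control) or given the PI3K inhibitor GDC-0941 (PI3Ki), the cytokine TGFB1 or the TGF-β receptor inhibitor LY2109761 (TGFBRi). The procedure was carried out in parallel for replicates r1 and r2, which gave 8 libraries of 3692 to 6273 cells and 70239657 to 122420544 UMIs. The sample labels call the members of each pair Mix and Primed without saying what the words mean here, and the pairs were not matched to r1 and r2, so the replicates may differ in more than culture. Each replicate is a culture of a single clone. The tests below take out the replicate as a term. Their p-values measure the spread then left between libraries of this line, and not that between melanomas. Of the 10x cell barcodes, which name droplets and not lineages, 194 occurred in more than 1 library, which concerned 28 cluster 6 cells, and no cell barcode was shared between cluster 6 cells of different libraries.

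The ID proteins (ID1 to ID4) are helix-loop-helix factors without a DNA-binding region that bind E proteins and keep them from activating transcription, and their genes are classical targets of BMP signalling through SMAD factors. PI3K signalling acts through AKT and mTOR to promote growth, glycolysis, lipid synthesis and translation. AKT also holds FOXO factors in the cytoplasm, and FOXO factors drive genes of quiescence and of receptor feedback such as ERBB3.

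Cluster 6 was a large population in the PI3Ki libraries and a small one in every other library. It took 28.6% of PI3Ki r1 cells (95% Clopper-Pearson interval 27.2 to 30%) and 19.6% of PI3Ki r2 cells (18.6 to 20.7%), a mean of 24.1% ± 6.33 (SD, n = 2). The Control libraries held 3.11% (2.60 to 3.68%) and 1.06% (0.752 to 1.44%), the TGFBRi libraries 0.994% and 0.654%, and the TGFB1 libraries 0.221% and 0.338%. In cells, these were 1104 and 1135 for PI3Ki, 129 and 39 for Control, 52 and 41 for TGFBRi, and 12 and 19 for TGFB1. All intervals cover counting error only, and the PI3Ki replicates differed by more than that error. Cluster sizes follow from the genes the cells were clustered on, so no test was made of these shares.

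**Figure D1:**
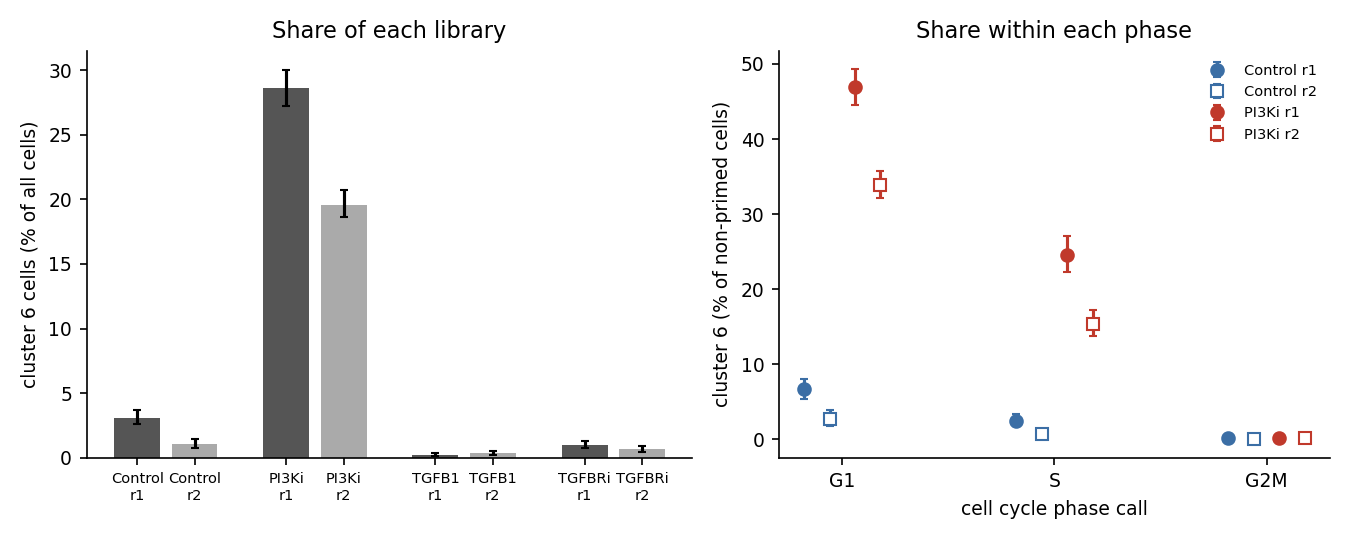
Left, bars give cluster 6 cells as a percentage of all cells of each library, with 95% Clopper-Pearson intervals. Right, points give cluster 6 as a percentage of the non-primed cells called G1, S or G2M in the Control and PI3Ki libraries, with the same intervals. Both PI3Ki libraries lie far above the other 6, and in the G2M phase all 4 libraries shown are near 0.

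Cluster 6 cells were mostly called G1 and almost never G2M. In PI3Ki r1, 70.9% were called G1, 29.0% S and 0.0906% G2M, against 32.4%, 35.9% and 31.7% of the other non-primed cells of that library. In PI3Ki r2, 74.7% were called G1, 25.1% S and 0.176% G2M, against 36.1%, 34.1% and 29.7%. Control cluster 6 cells had nearly the same G1 share, 69.8% and 76.9%. Read the other way, cluster 6 took 46.9% and 33.9% of the non-primed G1 cells of the PI3Ki libraries, 24.6% and 15.4% of the S cells, and 0.115% and 0.147% of the G2M cells. Phase is called from the same counts that were clustered, and these shares are a description. The plot of shares by phase shows the PI3Ki and Control libraries apart in G1 and S alone.

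Replication genes were compared within cells of the same phase call. Levels are given as CPM, the UMIs of a gene per 1000000 UMIs of the same summed cells. The summed level of 18 S phase and replication genes (MCM helicase subunits, PCNA, ribonucleotide reductase and others) in S cells of the PI3Ki libraries was 1860 and 1890 CPM in cluster 6, against 2370 and 2280 CPM in other non-primed cells. The log2 ratios of these sums were -0.34 and -0.27, where the median over 5550 genes at 20 CPM or more in either population of S cells was -0.16. In G1 cells the sums were 461 and 445 CPM against 638 and 621 CPM. Cluster 6 cells were slightly shallower, with a median of 16019.5 and 17963 UMIs per cluster 6 cell against 18249 and 20760.5 per other non-primed cell, and the median mitochondrial share was 12% and 11.4% against 11.2% and 10.3%.

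Cluster 6 cells expressed the defining genes of the melanocytic lineage. PMEL, a structural protein of the melanosome, stood at 3980 and 4010 CPM in PI3Ki cluster 6 cells, MLANA at 1300 and 1440 CPM, and the lineage factor SOX10 at 126 CPM in both libraries. Of the leukocyte markers, CD3E and TYROBP were at 0 and the summed level was 0.599 and 0.409 CPM. The sum of 5 epithelial keratin and adhesion markers was 95.9 and 83.8 CPM against 89.8 and 94.7 CPM in other non-primed cells, with EPCAM, KRT5 and KRT14 at 0 in cluster 6. The 6 endothelial and fibroblast markers summed to 16.6 and 19.1 CPM against 24.0 and 22.1 CPM.

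All 7 genes given as markers of the cluster (ID3, ID1, ID2, SAT1, C11orf96, MXD4 and CHL1) were higher in cluster 6 than in the other non-primed cells of both PI3Ki libraries, as were 16.1% of the 5531 genes at 20 CPM or more in either population. ID3 was at 203 and 218 CPM against 103 and 133 CPM. ID1 was at 46.0 and 47.9 CPM against 31.1 and 40.8 CPM, and ID2 at 25.2 and 26.8 CPM against 15.1 and 16 CPM. The log2 ratio of the mean levels over both libraries, cluster 6 to the other cells, was 0.84 for ID3, 0.39 for ID1 and 0.74 for ID2. ID4, the remaining family member, went the other way, at 10.2 and 11.1 CPM against 21.3 CPM in both libraries. ID4 reached 20 CPM only in the other cells, and ID2 and MXD4 only in cluster 6, so the level filter fixed the direction of these genes. In G1 cells ID4 was at 9.89 and 10.8 CPM against 13.3 and 13.7 CPM.

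The other 4 markers have unlike roles. SAT1, the enzyme that acetylates spermidine and spermine for breakdown or export, was at 479 and 524 CPM against 223 and 243 CPM. MXD4, a partner of MAX that represses MYC target genes, was at 33.0 and 30.6 CPM against 12.6 and 13.1 CPM. CHL1, a neural adhesion protein of the L1 family, was at 50.2 and 41.3 CPM against 25.2 and 20 CPM. C11orf96 was at 69.2 and 62.8 CPM against 41.0 and 35.4 CPM. No marker's cluster 6 values overlapped those of the other non-primed cells in PI3Ki. The share of all genes without such overlap was not counted, so this does not set the markers apart. Of all genes at 20 CPM or more in either population, 16.1% were higher and 76.8% lower in both libraries. For ID2 and MXD4 the level filter had fixed the direction. The marker ratios ran from a log2 of 0.39 (ID1) to 1.31 (MXD4). The markers served to name the cluster and every gene contributed to the clustering, so the marker ratios carry no test.

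**Figure D2:**
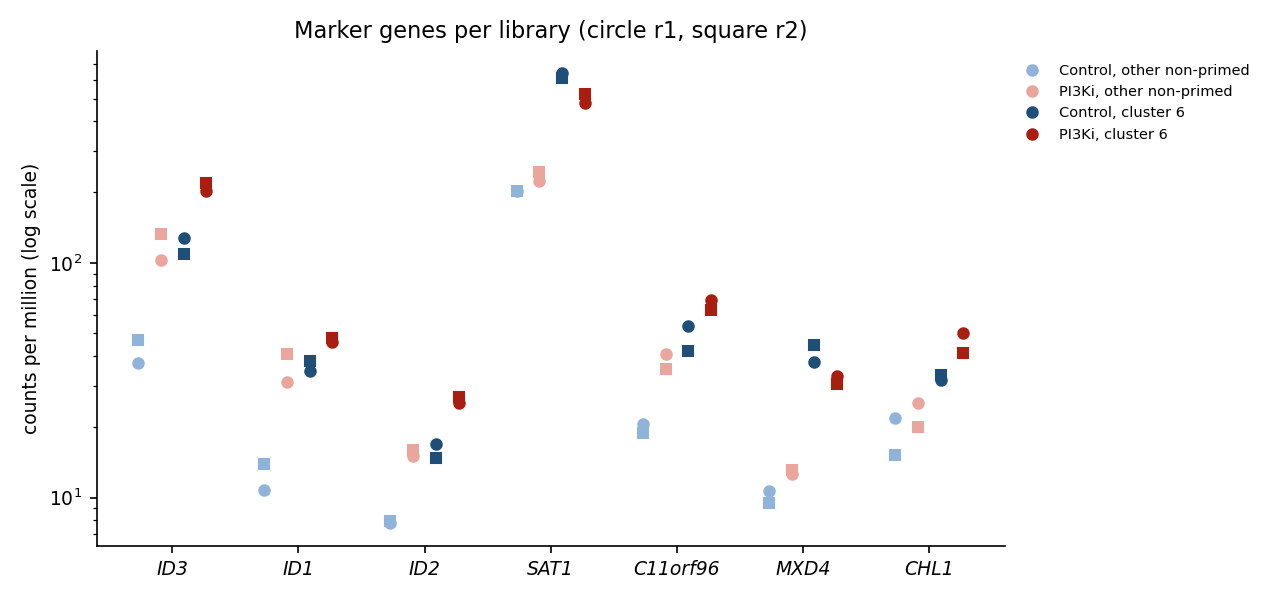
Points give the CPM of each marker gene (log axis) in summed cells of the Control and PI3Ki libraries, in cluster 6 and in the other non-primed cells, with 1 point per replicate. For ID3, Control cluster 6 cells lie at 127 and 109 CPM, between the other Control cells and PI3Ki cluster 6.

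Cluster 6 cells of untreated cultures carried the same markers, which membership largely set, since cells of all libraries were clustered together. In Control cluster 6 cells ID3 was at 127 and 109 CPM against 37.6 and 46.8 CPM in the other non-primed Control cells. SAT1 was at 641 and 613 CPM against 202 and 203 CPM, and MXD4 at 37.7 and 44.5 CPM against 10.7 and 9.49 CPM. SAT1 and MXD4 thus stood higher in the cluster 6 cells of Control than in those of PI3Ki, and ID3 stood lower. The Control r2 values rest on 39 cells.

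The markers differed in how they followed phase within the cluster. SAT1 was at 539 and 598 CPM in the G1 cells of PI3Ki cluster 6 and at 348 and 326 CPM in its S cells. MXD4 was at 37.2 and 34.1 CPM in G1 and 24.0 and 21.5 CPM in S. ID3 did not fall from G1 to S, at 200 and 216 CPM in G1 and 210 and 222 CPM in S. Among G1 cells alone the log2 ratio of cluster 6 to other non-primed cells was 1.05 for ID3, 1.11 for SAT1 and 1.14 for MXD4.

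Single cells overlapped more than these sums. The 7 markers together gave a median of 7.63 and 7.94 UMIs per 10000 in PI3Ki cluster 6 cells and 3.89 and 4.21 in other non-primed cells. The lowest 5% of PI3Ki r1 cluster 6 cells were at or under 2.08, below the median of the other cells. Of the other non-primed cells, 12.7% in PI3Ki r1 and 15.6% in PI3Ki r2 reached the cluster 6 median of their library.

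ID3 was not particular to cluster 6. In the PI3Ki libraries cluster 9 stood at 215 and 244 CPM for ID3, above cluster 6, and cluster 1 followed with 160 and 164 CPM. ID1 was also higher than in cluster 6 (46.0 and 47.9 CPM) in both libraries of cluster 9, at 46.8 and 72.6 CPM, and of cluster 1, at 46.6 and 51.5 CPM. For ID3, clusters 7 and 2 were lowest, at 49.8 and 77.1 CPM and at 53.2 and 82.8 CPM. Cluster 3, which held 23 and 52 PI3Ki cells, stood above cluster 6 in MXD4, at 49.7 and 52.4 CPM against 33.0 and 30.6 CPM. For SAT1 it was at 427 and 858 CPM, below cluster 6 in r1 (479 CPM) and above it in r2 (524 CPM). Apart from cluster 3, no other non-primed cluster reached cluster 6 in SAT1 (at most 288 CPM) or MXD4 (at most 21.5 CPM). In ID2, C11orf96 and CHL1 cluster 6 stood highest of the non-primed clusters, with others close. ID2 was at 22.6 and 23.5 CPM in cluster 9, against 25.2 and 26.8 CPM. C11orf96 was at 60.8 CPM in cluster 11 of r2, against 62.8 CPM. CHL1 was at 42.5 and 17.5 CPM in cluster 9, against 50.2 and 41.3 CPM. The label ID3-high therefore held against most non-primed cells but not against cluster 9, and ID1 did not set cluster 6 apart from clusters 1 and 9.

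**Figure D3:**
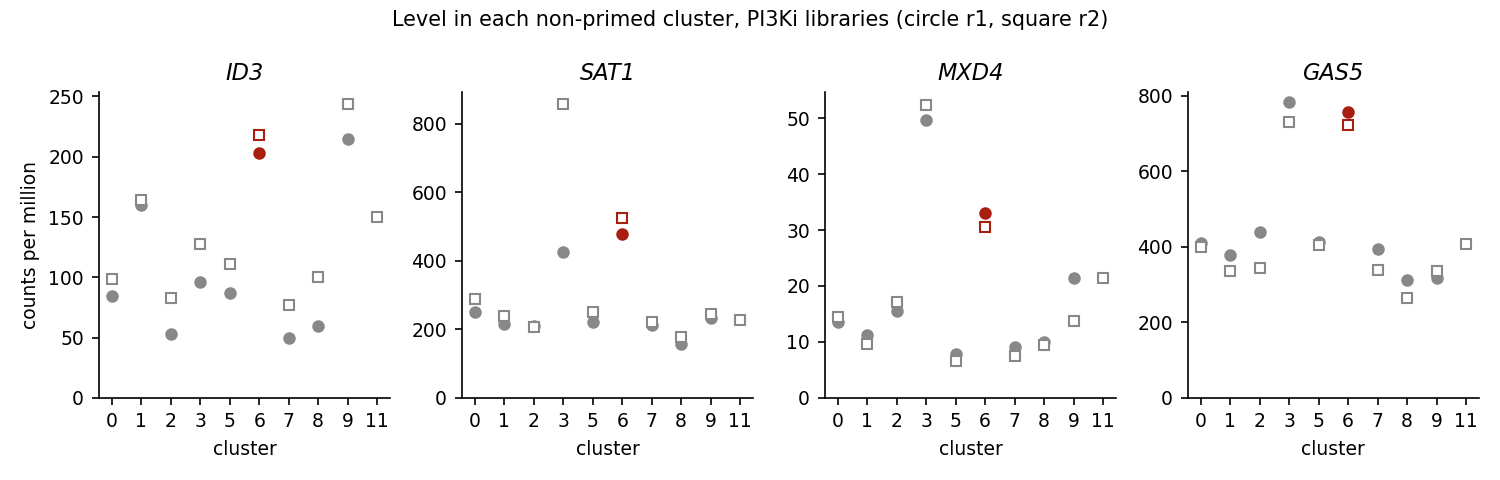
Points give the CPM of ID3, SAT1, MXD4 and GAS5 in the summed cells of each non-primed cluster of the PI3Ki libraries (circle r1, square r2, cluster 6 in red). Cluster 9 matches or passes cluster 6 in ID3, and cluster 3, with 23 and 52 cells, is the only cluster near or above it in SAT1, MXD4 and GAS5.

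Across all genes, few were higher in cluster 6 and many were lower. Of 5531 genes at 20 CPM or more in either population, 47 (0.85%) were over 1.5 times higher in cluster 6 than in other non-primed cells in both PI3Ki libraries, and 373 (6.74%) were over 1.5 times lower. Of these genes 596 reached 20 CPM only in the other cells and 108 only in cluster 6, which fixed their direction. Among the 4827 genes at 20 CPM in both populations, an alternative chosen after seeing the data, 29 were higher and 208 lower by that fold, and 16.3% were higher and 75.8% lower by any amount. Of the 7 markers, 6 were among the 47, all but ID1. The median log2 ratio of all genes was -0.23, so a gene at a ratio of 0 stood above most others. When ratios were centred on that median, an alternative chosen after seeing the data, 171 genes were higher and 204 lower, which moved the higher share of these genes from 11.2% to 45.6%. In G1 cells alone, 43 of 5316 genes (0.809%) were higher and 203 (3.82%) lower by that fold, and 16.7% were higher and 72% lower by any amount.

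The 15 genes with the highest ratios had unlike roles, and 8 of them (CHL1-AS2, MXD4, PNRC1, LINC02762, SGCD, KLHL24, YPEL3 and CBLB) reached 20 CPM only in cluster 6. CHL1-AS2, antisense to CHL1, led with 28.2 and 23.9 CPM against 10.6 and 8.77 CPM, a log2 ratio of 1.43. Whether any of its reads came from CHL1 was not examined. MXD4 followed at 1.31, the histone gene HIST3H2A at 1.19, PNRC1, a nuclear receptor coactivator, at 1.15 and the long noncoding RNA LINC02762 at 1.12. SGCD, a sarcoglycan, stood at 20.2 and 20.8 CPM against 9.52 and 9.54 CPM, the protease PRSS23 at a ratio of 1.06 and KLHL24, a kelch-like adaptor, at 1.01. YPEL3, a growth suppressor, was at 0.98, the ubiquitin ligase CBLB at 0.92 and the secretion factor CADPS at 0.90. All 15 genes at this end also stood higher in Control cluster 6, from a log2 ratio of 0.67 (GAS5) to 2.03 (MXD4), where the median of all genes was -0.29. Cells of all libraries were clustered together, so membership largely set this likeness.

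The 15 lowest ratios were those of mitotic genes and of the histone genes HIST1H3G and HIST1H1A. DLGAP5, a spindle protein, was at 1.63 and 2.23 CPM in cluster 6 against 37.6 and 34.7 CPM. PLK1, the polo-like mitotic kinase, was at 2.23 and 3.41 CPM against 48.1 and 41.4 CPM, and the proliferation marker MKI67 at 18.8 and 26.6 CPM against 269 and 250 CPM. The 17 listed mitotic genes summed to 262 and 313 CPM in cluster 6 against 2100 and 1960 CPM, and in G1 cells alone to 173 and 231 CPM against 725 and 657 CPM. Of the 16 that reached 20 CPM, 12 did so only in the other cells, so their direction was fixed by that level. Over all genes at 20 CPM, 76.8% were lower and 16.1% higher in both libraries by any amount. S phase and replication genes were lower for 16 of 17, of which 2 reached 20 CPM only in the other cells, with a median of -0.51. PCNA, the polymerase clamp, stood at 87.0 and 87.1 CPM against 132 and 129 CPM.

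Genes of the cytosolic ribosome were higher and genes that build ribosomes lower in cluster 6 than in the pooled other non-primed cells of PI3Ki. All 20 listed ribosomal protein genes were higher in cluster 6 in both libraries, against 16.1% of all genes, with a median log2 ratio of 0.39 against -0.23 for all genes. RPL32 was at 2510 and 2700 CPM against 1690 and 1950 CPM and RPS18 at 8070 and 8190 CPM against 5760 and 5880 CPM. Of all 77 cytosolic ribosomal protein genes at this level, 76 were higher, and RPS26 was lower. Together they took 30.6% and 31.7% of the UMIs of PI3Ki cluster 6 cells against 23.6% and 25.1% in other non-primed cells, and 28.4% and 28.7% against 22.1% and 21.4% in Control. Cluster 6 was not the highest, since cluster 11, which had 271 cells in PI3Ki r2, stood at 36.3% and at 3190 CPM of RPL32. Cluster 3 followed cluster 6 at 27.7% and 27.5%, on 23 and 52 cells. CPM values are shares of a library's total, so these UMIs enter the scale of every other gene. All 17 ribosome biogenesis genes that reached 20 CPM, of 18 listed, were lower, as were 76.8% of all genes. Their median was -0.33 against -0.23 for all genes, and relative to that median 11 were lower and 4 higher. NOP56, a core protein of small nucleolar ribonucleoproteins, stood at 304 and 324 CPM against 429 and 419 CPM. The protein genes have near-identical pseudogenes, and how reads were split among them is not given in the sources used here.

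Several host genes of small nucleolar RNAs were higher too. GAS5, a noncoding host gene that accumulates in growth-arrested cells, was at 758 and 723 CPM against 395 and 359 CPM. EPB41L4A-AS1 was at 77.7 and 85.5 CPM against 39.0 and 41.9 CPM, and SNHG19 at 81.2 and 66.0 CPM against 43.7 and 36.4 CPM. Of 20 host genes at 20 CPM, a list drawn up after the values were seen, 16 were higher in both libraries, against 16.1% of all genes, and 4 (SNHG12, SNHG17, SNHG16 and SNHG1) were lower, with a median of 0.29.

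Transcripts of ribosomal proteins and of many such host genes are known to begin with a run of pyrimidines, through which mTOR signalling controls their translation and stability. The windows below reach from 15 bases before to 15 bases from an annotated RefSeq start of each gene (GRCh38.p14, gene strand, 5′ to 3′). RPS18, RPL32 and SNHG19 held a run there (in capitals), GAS5 and EPB41L4A-AS1 did not, and the mitotic gene PLK1 is given for contrast. Other starts of these genes were not examined, so a window without a run does not show that the transcripts lack it. A run was defined as a C followed by at least 4 bases that are C or T, beginning within 5 bases of the start, read on the gene's strand only.
RPS18, chr6:33272060-33272089, plus strand: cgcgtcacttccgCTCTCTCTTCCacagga
RPL32, chr3:12841551-12841580, minus strand: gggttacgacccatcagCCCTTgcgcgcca
SNHG19, chr16:2155344-2155373, minus strand: ctcgcccgcccctgtCTTTTCggggtcgag
GAS5, chr1:173869031-173869060, minus strand: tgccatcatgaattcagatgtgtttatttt
EPB41L4A-AS1, chr5:112160511-112160540, plus strand: tggactcatgaattctgtcgggtcccaaaa
PLK1, chr16:23678874-23678903, plus strand: ggagcggagcggtgcggaggctctgctcgg

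A run was found in 50 of 62 ribosomal protein genes with a RefSeq promoter (80.6%) and in 12 of 18 host genes (66.7%). It was found in 23.8% of the 4514 genes at 20 CPM with a promoter and in 21.1% of all 27305 promoters. Of the 47 higher genes 38 had a promoter and 10 of these held a run (26.3%), near the share of all genes. Of the 373 lower genes 292 had a promoter and 45 held a run (15.4%). Of the host genes described, GAS5 and EPB41L4A-AS1 held none at the annotated start used, and other starts were not examined. The motif was chosen after the ratios were seen, and a match describes the sequence only.

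**Figure D4:**
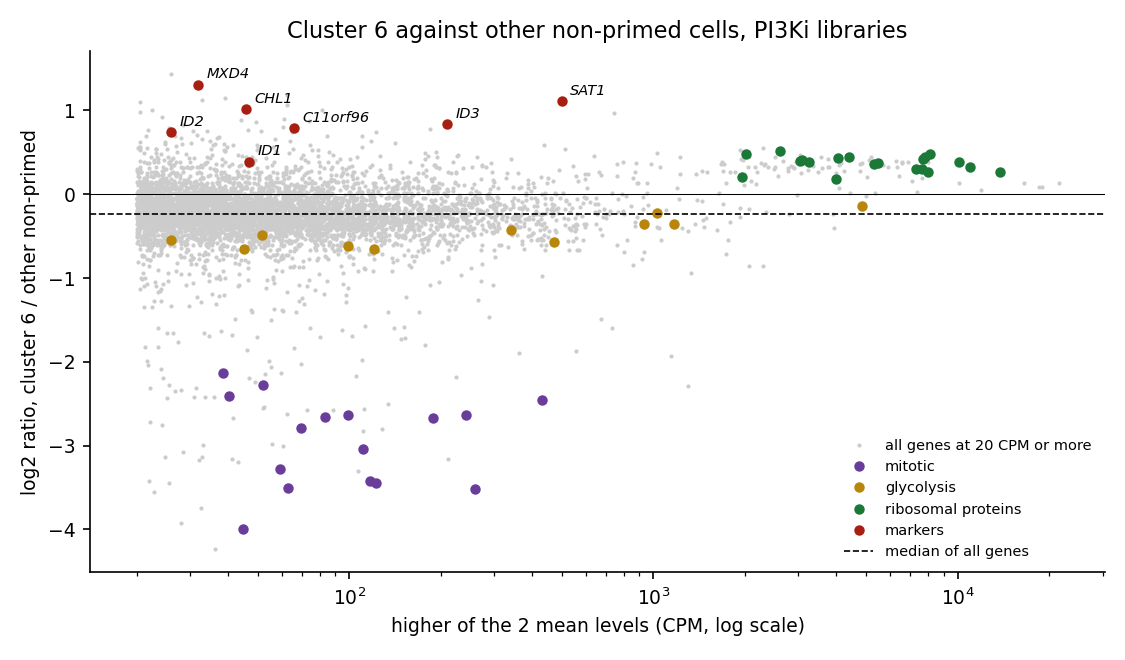
Each point is a gene of the PI3Ki libraries, with the higher of its mean levels in the 2 populations (CPM, log axis) against its log2 ratio in cluster 6 to other non-primed cells. The dashed line marks the median of -0.23, the mitotic genes at 20 CPM lie below -2, glycolysis genes lie at or below -0.14, and ribosomal proteins and markers lie above 0.

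Among metabolic genes that PI3K signalling is known to support, glycolysis genes lay below the background of all genes in cluster 6, also in G1 cells. The sterol and ATF4 lists had medians close to that background in G1 cells. All 11 glycolysis genes at 20 CPM were lower in both libraries, against 76.8% of all genes, with a median of -0.48, and 1 of them, HK2, reached that level only in the other cells. LDHA, lactate dehydrogenase, was at 312 and 324 CPM against 460 and 483 CPM, and PGAM1 at 68.6 and 86.3 CPM against 110 and 132 CPM. Relative to the median of all genes, 9 of the 11 were lower and 2 higher, and in G1 cells the list's median was -0.52 against -0.21 for all genes. All 14 sterol and fatty acid synthesis genes at 20 CPM, of 18, were lower (median -0.41; 10 lower and 1 higher relative to all genes), led by INSIG1 at 25.6 and 25.9 CPM against 42.8 and 42.3 CPM. In G1 cells 13 of these 14 were lower, with a median of -0.23, close to the -0.21 of all genes. All 8 genes of the ATF4 and amino acid response at 20 CPM, of 14, were lower too (median -0.31), though 2 of them, PSAT1 and SLC7A5, reached that level only in the other cells, with the amino acid transporter SLC7A5 at 18.6 and 17.7 CPM against 35.0 and 31.2 CPM. In G1 cells the median of this list, then 9 genes at 20 CPM, was also -0.23. Untreated cluster 6 cells showed low glycolysis genes as well, with a Control median of -0.68, where that of all genes was -0.29. The sterol and ATF4 lists were at -0.49 and -0.48 there. Cells of all libraries were clustered together, so membership largely set this likeness.

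FOXO and PI3K feedback genes leaned the other way, though not all of them. Of 30 listed, 15 reached 20 CPM, 10 of them higher and 4 lower in both libraries, against 16.1% and 76.8% of all genes. Their median was 0.11, and relative to the median of all genes 12 were higher and 2 lower. KLHL24 and FOXO3, 2 of the higher ones, reached 20 CPM only in cluster 6. In Control cluster 6 the list's median was 0.26, where that of all genes was -0.29. The receptor ERBB3 was at 124 and 123 CPM against 73.2 and 74.5 CPM, and TXNIP, an inhibitor of thioredoxin and of glucose uptake, at 81.9 and 76.5 CPM against 61.5 and 53.3 CPM. CDKN1B, which encodes a cyclin-dependent kinase inhibitor, had a log2 ratio of -0.34 in all cells and 0.11 in G1 cells, and the type I insulin-like growth factor receptor IGF1R one of 0.23. Of 20 BMP and SMAD targets and feedback genes only 4 reached 20 CPM, of which BMPR2 and HEY1 were higher and SMAD5 and BAMBI lower. Of all genes 16.1% were higher and 76.8% lower. Relative to the median of all genes all 4 were higher, and the list's median was 0.19. The receptor BMPR2 was at 65.0 and 62.8 CPM against 41.7 and 40.0 CPM, and BAMBI, a BMP pseudoreceptor, at 29.2 and 34.9 CPM against 29.4 and 35.7 CPM. MYC itself stood slightly higher, at 197 and 199 CPM against 163 and 157 CPM, as did its antagonist MXI1 at 121 and 131 CPM against 105 and 101 CPM.

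Single genes tied to ERK output and to the primed state were lower, but the per-cell score of primed genes was not. FOSL1, an AP-1 subunit induced by ERK, was at 13.3 and 17.5 CPM against 44.2 and 55.6 CPM. VGF, a secreted neuropeptide precursor, was at 237 and 294 CPM against 1210 and 1400 CPM. That level was carried by clusters 2 (4470 and 4340 CPM) and 8 (4140 and 4110 CPM), while clusters 0, 1 and 9 stood at 357 to 608 CPM and cluster 3 at 79 and 299 CPM. Of 16 primed markers only 3 reached 20 CPM. FOSL1 and fibronectin (FN1), the latter at 12.1 and 17.1 CPM against 22.6 and 22.2 CPM, did so only in the other cells. The authors' score of primed genes had a median of 0.379 and 0.38 in cluster 6 against 0.375 and 0.378 in other non-primed cells. In the primed cells of these libraries it was 0.417 and 0.44. Of 14 ERK genes at 20 CPM, 4 were higher and 8 lower, where 16.1% of all genes were higher and 76.8% lower in both libraries. Relative to the median of all genes the direction turned, with 8 higher and 5 lower. Of the 14 ERK genes, EGR1 and FOSL1 reached 20 CPM only in the other cells and SPRY4 only in cluster 6. The feedback inhibitor SPRY4 stood above at 27.8 and 24.2 CPM against 20.8 and 18.2 CPM. Pigment genes split as well, with the tyrosinase gene TYR at 86.1 and 89.9 CPM against 70.7 CPM in both and DCT, dopachrome tautomerase, at 150 and 158 CPM against 267 and 282 CPM. Of 14 pigment genes at 20 CPM, 4 were higher and 8 lower, against the same 16.1% and 76.8% of all genes. Relative to the median of all genes 8 were higher and 4 lower.

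Of 8 polyamine genes at 20 CPM, SAT1 was the one higher in cluster 6 and the other 7 were lower, where 76.8% of all genes were lower. Relative to the median of all genes 2 were higher and 6 lower. ODC1, the first enzyme of polyamine synthesis, was at 75.4 and 78.2 CPM against 96.2 and 102 CPM. Lysosome and autophagy genes were lower for 14 of 16, near that background, of which 2 reached 20 CPM only in the other cells, and relative to the median of all genes 11 were lower and 4 higher. Immediate early and stress genes were lower for 9 of 10, of which 3 reached 20 CPM only in the other cells, with JUND higher at 61.5 and 61.7 CPM against 54.6 and 48.7 CPM. Transcripts of the mitochondrial genome were higher for 7 of 13 and lower for 1, where 16.1% of all genes were higher and 76.8% lower. Their median was 0.05, and relative to the median of all genes 12 were higher.

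Among the 7 non-primed clusters with at least 50 cells in both PI3Ki libraries, those most like cluster 6 were clusters 2, 0 and 9, with Pearson correlations of log2(CPM + 1) of 0.984 over 5416 genes, 0.983 over 5481 genes and 0.980 over 5353 genes. These points share libraries and are a description, and clusters 3 and 11, with fewer cells than that in PI3Ki r1, were not compared. Clusters 2, 0 and 9 were also rich in G1 calls, at 57.1 and 60.7%, 62.7 and 55.8%, and 76.5 and 68.6%. Against cluster 2, the leading difference was VGF, at 237 and 294 CPM in cluster 6 against 4470 and 4340 CPM, a log2 ratio of -4.05, and ID3 was 3.09 times higher in cluster 6. Against cluster 0, LINC02762 led the higher genes at 33.2 and 32.4 CPM against 13.7 and 12.3 CPM. Against cluster 9, GAS5 was 2.27 times and SAT1 2.10 times higher, while the cystatin CST1 was at 36.2 and 33.8 CPM against 190 and 148 CPM and the receptor tyrosine kinase MET at 8.12 and 10.7 CPM against 37.7 and 60.2 CPM. All 20 ribosomal protein genes were higher in cluster 6 than in each of these clusters, with medians of 0.44, 0.40 and 0.33, where the medians of all genes were -0.21, -0.24 and -0.17. Of all genes 13.1%, 14.2% and 18% were higher in both libraries against clusters 2, 0 and 9, and 74.9%, 77.7% and 62.6% were lower. Glycolysis genes were lower for 11 of 11, 11 of 11 and 10 of 10, with medians of -0.52, -0.51 and -0.54. Sterol and fatty acid genes were mixed against cluster 2, with 3 of 14 higher and 8 lower and a median of -0.19, near that of all genes. They were lower for 12 of 15 against cluster 0 (median -0.30) and 15 of 15 against cluster 9 (median -0.69).

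Expression within the cluster also differed between the PI3Ki and Control libraries. Counts were summed over the cluster 6 cells of each library and tested with edgeR's quasi-likelihood test with the replicate as a term, over the 6 libraries with at least 20 such cells, which left out both TGFB1 libraries. Of 9039 genes, 15 (0.166%) rose and 50 (0.553%) fell in PI3Ki against Control at a Benjamini-Hochberg adjusted p under 0.05, and 953 had an unadjusted p under 0.05. A cell enters the cluster by its expression, so this comparison sees only what differs between cells alike enough to be clustered together. Whether the same kind of cell changed or other cells entered the cluster was not tested. The counts depend on single libraries: without PI3Ki r1, 2 rose and 8 fell, without PI3Ki r2 4 and 8, without Control r1 9 and 20, and without Control r2 5 and 22. DESeq2 called 2 and 9.

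The markers name a cluster made mostly of PI3Ki cells, so their choice favours a rise in PI3Ki. Of the 7 markers only ID3 passed in this comparison. It rose from 127 and 109 CPM to 203 and 218 CPM, a log2 difference of 0.81 (SE 0.11, edgeR adjusted p = 3.92e-06). Without PI3Ki r2 its log2 difference was 0.70 with an adjusted p of 0.136. SAT1 had a log2 difference of -0.31 (SE 0.10, edgeR adjusted p = 0.122) and MXD4 one of -0.31 (SE 0.16, edgeR adjusted p = 0.506), both with Control above PI3Ki in each replicate. CHL1 stood at 0.57 (SE 0.16, edgeR adjusted p = 0.0723), ID2 at 0.66 (SE 0.21, edgeR adjusted p = 0.139), C11orf96 at 0.43 (SE 0.14, edgeR adjusted p = 0.146) and ID1 at 0.40 (SE 0.16, edgeR adjusted p = 0.297).

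Genes that fell within cluster 6 included a regulator of growth and the pigment lineage genes DCT and CITED1. DDIT4, an inhibitor of mTORC1 induced by stress, fell from 110 and 92.7 CPM to 47.9 and 46.2 CPM (log2 -1.12, SE 0.12, edgeR adjusted p = 2.96e-09). DCT fell from 304 and 279 CPM to 150 and 158 CPM (log2 -0.93, SE 0.10, edgeR adjusted p = 9.52e-09). CITED1, a transcriptional coactivator of the melanocyte lineage, fell from 46.0 and 59.4 CPM to 20 and 23.3 CPM (log2 -1.26, SE 0.16, edgeR adjusted p = 3.4e-07). The groups did not overlap for these 3 genes, but the share of all tested genes without overlap was not counted. Without any single Control or PI3Ki library, the log2 difference ran from -0.98 to -1.21 for DDIT4, from -0.78 to -1.04 for DCT and from -1.13 to -1.43 for CITED1.

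LDHA fell from 511 and 543 CPM to 312 and 324 CPM (log2 -0.71, SE 0.10, edgeR adjusted p = 3.92e-06), though its adjusted p was 0.166 without PI3Ki r1. It was one of 3 of 13 tested glycolysis genes that fell, with PGK1 and PGAM1, against 0.553% of all genes tested. MGP, matrix Gla protein, fell most among genes with a mean of at least 10 CPM, from 15.6 and 28.4 CPM to 4.74 and 5.50 CPM (log2 -2.04, SE 0.30, edgeR adjusted p = 6.04e-06), and its adjusted p was 0.18 without Control r1 and 0.0738 without PI3Ki r2. Of 17 pigment genes 15 were tested and 2 fell, DCT and the channel TRPM1, against the same share, and the list's median log2 difference was -0.05. By edgeR 0 of 20 ribosomal protein genes passed (6 at an unadjusted p under 0.05, 0 by DESeq2), 0 of 18 ribosome biogenesis genes (6 unadjusted, 0 by DESeq2) and 0 of 15 tested mitotic genes (1 unadjusted, 0 by DESeq2).

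Among genes that rose at a mean of at least 10 CPM, CST1 and its close paralog CST4 led. CST1 was at 8.28 and 13.6 CPM in Control and 36.2 and 33.8 CPM in PI3Ki (log2 1.86, SE 0.24, edgeR adjusted p = 4.74e-07). The paralogs share sequence, so the split of reads between them is uncertain. In the other non-primed cells CST1 was at 5.32 and 10.6 CPM in Control and 31 and 53.3 CPM in PI3Ki, and in cluster 9 of PI3Ki at 190 and 148 CPM, and the part of free RNA in its cluster 6 level was not tested. The adjusted p for CST1 was 0.089 without Control r1 and 0.291 without PI3Ki r1. MT2A, a metallothionein, rose from 730 and 497 CPM to 1070 and 1040 CPM (log2 0.78, SE 0.11, edgeR adjusted p = 6.04e-06), with an adjusted p of 0.0927 without Control r2. It belongs to a family of similar genes whose reads may be split uncertainly. VGF rose from 144 and 179 CPM to 237 and 294 CPM (log2 0.70, SE 0.15, edgeR adjusted p = 0.00424), with an adjusted p of 0.249 without Control r2, 0.996 without PI3Ki r1 and 0.996 by DESeq2. VGF stood at 803 to 1400 CPM in the surrounding non-primed cells, and the part of free RNA in its cluster 6 level was not tested.

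Non-primed cells outside cluster 6 rose in every marker under PI3Ki. In the same kind of fit over all 8 libraries, 630 of 17861 genes (3.53%) rose and 766 (4.29%) fell in PI3Ki. These counts were 342 and 450 without Control r1, 169 and 302 without Control r2, 328 and 340 without PI3Ki r1, 124 and 236 without PI3Ki r2, and 96 and 189 without the replicate block. All 7 markers rose, with a median log2 difference of 1.02. These genes name a cluster of which 43.6% and 44.8% of the cells came from the 2 PI3Ki libraries, so the choice of markers favours such a rise. ID3 rose from 37.6 and 46.8 CPM to 103 and 133 CPM (log2 1.55, SE 0.09, edgeR adjusted p = 1.12e-11), ID1 by 1.61, ID2 by 1.05, C11orf96 by 1.02, MXD4 by 0.43, CHL1 by 0.38 and SAT1 by 0.27. ID4 fell by 0.27. ID3 in these PI3Ki cells were thus near the 127 and 109 CPM of Control cluster 6 cells, while SAT1, at 223 and 243 CPM, stayed far under the 641 and 613 CPM there. Of the 15 genes with the highest cluster 6 ratios, 6 rose outside the cluster (CHL1-AS2, MXD4, LINC02762, SAT1, CHL1 and CBLB) and 0 fell, and of the 15 with the lowest, 0 passed by edgeR (2 at an unadjusted p under 0.05, 0 by DESeq2).

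**Figure D5:**
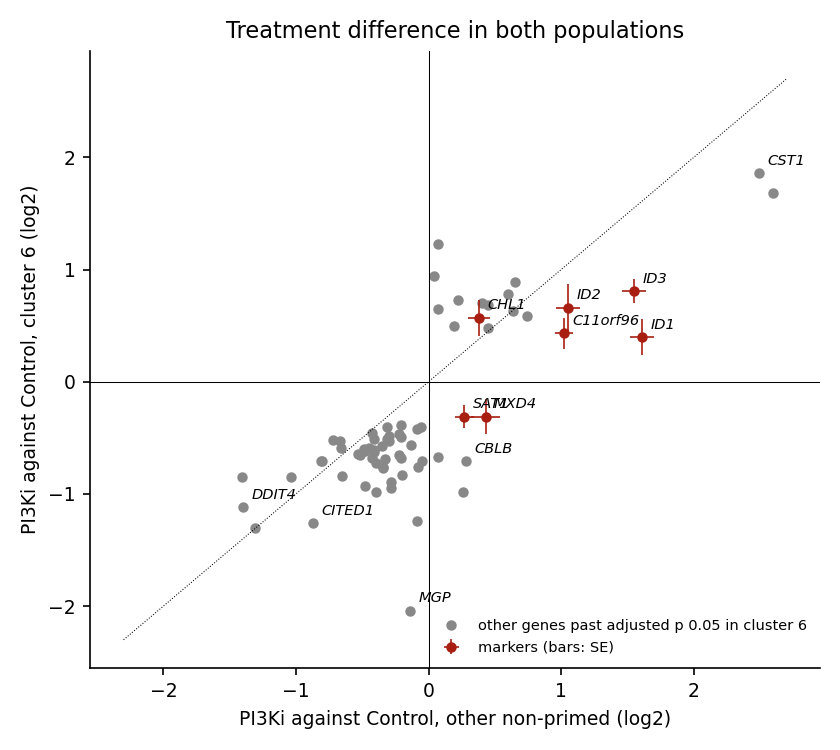
Points give the log2 difference of PI3Ki against Control in non-primed cells outside cluster 6 (x axis) and in cluster 6 cells (y axis), for the 65 genes past the threshold in cluster 6 (grey) and the 7 markers (red, with standard errors). The dotted line marks equal differences. ID3, ID1, ID2 and C11orf96 lie below it and CHL1 above it, and MXD4 and SAT1 lie below 0 in cluster 6.

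Of the 65 genes called in cluster 6, 10 rose and 37 fell in both populations, 17 did not pass the threshold outside, and 1, CBLB, fell in cluster 6 and rose outside. CBLB lost its call in cluster 6 without Control r2 (edgeR adjusted p = 0.806), without PI3Ki r1 (edgeR adjusted p = 0.39) and without PI3Ki r2 (edgeR adjusted p = 0.639). Its edgeR adjusted p was also 0.109 without the replicate block, 0.107 in G1 cells, 0.0581 with no filter on low counts and 0.362 with equal cell numbers. Both fits use the same libraries, and the difference between them was not tested. Of 29 tested FOXO and feedback genes, ERBB3 and TXNIP rose outside the cluster and IRS1, GADD45A and FBXO32 fell, against 3.53% and 4.29% of all genes, with a median log2 difference of -0.07. TXNIP rose outside the cluster from 29.8 and 38.4 CPM to 61.5 and 53.3 CPM (log2 0.82, SE 0.09, edgeR adjusted p = 8.03e-07). Within cluster 6 it was at 78.2 and 81.6 CPM in Control and 81.9 and 76.5 CPM in PI3Ki (log2 0.02, SE 0.12, edgeR adjusted p = 0.977). ERBB3 rose outside from 59.3 and 62.5 CPM to 73.2 and 74.5 CPM (log2 0.35, SE 0.07, edgeR adjusted p = 0.00214) and within the cluster stood at 117 and 129 CPM in Control and 124 and 123 CPM in PI3Ki. For both genes the Control cluster 6 cells lay above the PI3Ki cells outside the cluster.

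Glycolysis fell outside the cluster as well, for 10 of 14 genes, as did 6 of 13 tested ATF4 genes and 6 of 16 primed markers (EGFR, NGFR, NT5E, FN1, FOSL1 and VEGFA), against 4.29% of all genes tested. Of 20 ribosomal protein genes 5 rose (RPL10 and RPLP1 among them), against 3.53% of all genes, with a median log2 difference of 0.23, and DESeq2 called 10. By edgeR 0 of 17 mitotic genes passed (0 at an unadjusted p under 0.05, 0 by DESeq2), and RRM2, ribonucleotide reductase, rose among the S phase genes. DDIT4 fell from 147 and 149 CPM to 54.7 and 52.0 CPM, a log2 difference of -1.40, and BNIP3, a hypoxia-induced mitophagy receptor, by 1.41. Of the 18 sterol and fatty acid genes 5 rose outside the cluster (SQLE and FASN among them), again against 3.53%, and SCD fell. Of 17 pigment genes 4 rose there (TYR, PMEL, MLANA and RAB27A), against the same 3.53%, and DCT fell.

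The few cluster 6 cells under TGF-β receptor inhibition, which share the Control libraries as reference, had high SAT1 and low ID3. ID3 was at 20 CPM in both TGFBRi libraries, against 5.22 and 5.24 CPM in their other non-primed cells, a log2 difference from Control of -2.56 (SE 0.25, edgeR adjusted p = 2.07e-10), and ID1 at 4 and 1.82 CPM. SAT1 was at 889 and 833 CPM (log2 0.49, SE 0.11, edgeR adjusted p = 0.0121), GAS5 at 1020 and 1040 CPM (log2 0.67, SE 0.11, edgeR adjusted p = 0.00012) and TXNIP at 136 and 131 CPM (log2 0.80, SE 0.16, edgeR adjusted p = 0.00708). These sums rest on 52 and 41 cells, with 15 and 11 UMIs of ID3. In all, 27 genes (0.299%) rose and 21 (0.232%) fell in TGFBRi.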

How the data were processed

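Libraries were 10x Genomics 3′ single-cell RNA-seq of WM989 cells. Values as deposited by the authors are UMI counts, which Cell Ranger produced against hg38 and which were pooled over libraries with no depth scaling; the authors then dropped cells in Seurat by gene number (meant also to remove doublets) and mitochondrial share, and no doublet caller was run here. Cluster numbers and phases, the mitochondrial percent per cell, the phase scores (S, G2M) and the score of primed genes are as the authors deposited them. Replicates r1 and r2 are those of the authors' cell labels; the sample labels name them Mix and Primed, and the match between the names was not settled. Columns of per-sample values left unmapped numbered 0.

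Counts were summed per library and population. Ratios of CPM used genes at 20 CPM or more in either population and have no test, since cells were clustered on these genes. Treatments were compared by edgeR 4.0.16 (glmQLFit, glmQLFTest, TMM, filterByExpr, replicate and treatment as terms, two-sided, Benjamini-Hochberg over all tested genes, threshold 0.05) under R 4.3.3, with DESeq2 1.42.0 as an alternative. The fit was also run on simulated counts, and no result given here rests on that run. The replicate term follows the study's methods, in which each replicate started from its own parallel culture. Differences between r2 and r1 correlated at 0.103 to 0.599 between treatments outside cluster 6, and at -0.0398 to 0.163 within it. Proportions carry 95% exact intervals.

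The text names the markers, listed pathway genes, the 15 genes at each end of the ratio, and the 10 largest rises and falls per comparison at 10 CPM or more, changed alike in both replicates. Other genes were named after their values were seen (RPS26, SNHG19 and the other small nucleolar RNA hosts, and those singled out against single clusters). Members and lists were chosen with earlier results of these data known. Some genes are not reported here.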

Additional observations from a re-analysis of the deposited data

Results flagged for a closer look

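For 6 named genes past the threshold in at least 1 of the populations, both replicates moved one way in cluster 6 and the opposite way in the non-primed cells outside it. The difference between the populations was not tested for any of them. Named genes in both fits numbered 298, and the share of all genes that moved so was not counted. Only CBLB passed the threshold in both populations. SSPN passed in cluster 6 alone (edgeR adjusted p = 0.0462, and 0.0558 outside), and SAT1, MXD4, FOSL1 and RAB27A passed outside it alone. CBLB had a PI3Ki against Control log2 difference of -0.71 in cluster 6 (-0.50 and -1.04 in r1 and r2) and 0.28 outside (0.19 and 0.34). SSPN, which encodes the membrane protein sarcospan, had -0.98 in cluster 6 and 0.26 outside. SAT1 had -0.31 and 0.27, and MXD4 -0.31 and 0.43. FOSL1 had 0.25 and -0.31, with 0.05 and 0.66 in the 2 replicates of cluster 6. RAB27A had -0.03 and 0.27, where the cluster 6 values were close to 0.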

How the results depend on the processing

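For cluster 6 against other non-primed cells in PI3Ki (47 genes over 1.5 times higher, 373 lower), a level of at least 50 CPM gave 20 and 197, a level of 20 CPM in both populations, chosen after seeing the data, 29 and 208, G1 cells alone 43 and 203, and centring on the median of all genes, also chosen then, 171 and 204. A single PI3Ki replicate gave 58 to 63 and 442 to 505, since fewer libraries had to pass. Thinning each cell to 5000 UMIs gave 56 and 421, and all other cells as reference 46 and 376.

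For PI3Ki against Control in cluster 6 (15 rose, 50 fell), DESeq2 called 2 and 9, no filter on low counts 21 and 27, PI3Ki and Control libraries alone 39 and 90, G1 cells 5 and 25, and 39 cells from every library 5 and 9. Leaving out 1 library gave 2 to 9 and 8 to 22, where the lone sample left in an arm is assumed to vary like the other groups. Outside the cluster (630 and 766), DESeq2 called 420 and 492, PI3Ki and Control libraries alone 1566 and 1660, G1 cells 292 and 393, and leaving out 1 library 124 to 342 and 236 to 450. DESeq2 size factors in edgeR gave 15 and 68 in cluster 6 and 625 and 757 outside. Except where fewer libraries or cells entered, the cause was not tested.

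Without the replicate block the calls outside the cluster were 96 and 189, all 285 shared with the 1396 of the blocked fit, and within it 14 and 39, 50 of these 53 shared with its 65. With PI3Ki and Control alone SAT1 passed in cluster 6 (log2 -0.31, edgeR adjusted p = 0.0457). Of single genes, NUPR1 turned to 0.07 in cluster 6 with equal cell numbers, and outside it HSPA1A to -0.21 and IFIT1 to 0.21 in G1 cells. DDIT4 and DCT passed in cluster 6 under every alternative run, and CITED1 under all but equal cell numbers (edgeR adjusted p = 0.0823). The 39 Control r2 cells and 2 residual degrees of freedom limit what could be detected within the cluster.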
